A study of Arabidopsis thaliana with 8 samples.

Results

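The probe sets described here are those whose signal was lower when LHP1 was mutated, both in plants with intact BPC4 and BPC6 and in plants without them. They were chosen on the measured values themselves: a mean log2 intensity at least 0.8 lower in lhp1-4 than in wild type, at least 0.8 lower in lhp1-4 bpc4 bpc6 than in bpc4 bpc6, and a difference between bpc4 bpc6 and wild type above -0.5. A log2 difference of -0.8 leaves 57.4% of the signal. Of 22716 probe sets analysed, 145 met all 3 limits and are called members below.

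The arrays held labelled cRNA from shoots of untreated Arabidopsis thaliana, accession Columbia, harvested at 18 days from a greenhouse at 20 °C with 18 h of light. There were 4 genotypes with 2 arrays each, 8 in all: lhp1-4 bpc4 bpc6 (the triple mutant), lhp1-4, bpc4 bpc6 and wild type, and every array was made from a pool of 6 plants. The triple mutant shares the lhp1-4 allele with the single mutant and both bpc alleles with the double mutant, and wild type carries none of them. The sources used here do not pair probe sets with genes, so that members are given by their array identifiers, the genotype labels were not checked against the mutated genes' own signal, and neither the shoot label nor traces of other organs were checked with marker genes. Replicates of a genotype are labelled as biological, and with 2 of each the number of arrays limits the precision.

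LHP1 (LIKE HETEROCHROMATIN PROTEIN 1, also known as TERMINAL FLOWER 2) is a plant chromodomain protein that binds histone H3 trimethylated at lysine 27, the mark laid down by the Polycomb group, and takes part in keeping marked genes silent. Plants that lack it are known for small, curled leaves and early flowering. BPC4 and BPC6 belong to the BASIC PENTACYSTEINE family, which binds GAGA repeats in DNA, and the series title names BPC6 as a recruiter of LHP1 to them. A transcript that is lower without LHP1 runs against the release of silencing for which the protein is known. The arrays give transcript signal only and do not show which loci LHP1 or the BPC proteins occupy.

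Of 323 probe sets that were at least 0.8 lower in lhp1-4 than in wild type, 194 (60.1%) were also at least 0.8 lower in the triple mutant than in bpc4 bpc6. The limit on bpc4 bpc6 against wild type left out 49 of these, and the remaining 145 are the members. Read from the other side, 840 probe sets were at least 0.8 lower in the triple mutant than in bpc4 bpc6, and the members made up 17.3% of them. The members nearest to the limit in lhp1-4 against wild type had log2 differences of -0.80, -0.801 and -0.802, and the nearest probe sets outside it had -0.794, -0.789 and -0.789. In the triple mutant against bpc4 bpc6 the nearest members had -0.810, -0.811 and -0.825, and those outside had -0.798, -0.789 and -0.784. With the other 2 limits met, 641 probe sets failed the first limit and 43 the second.

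**Figure D1:**
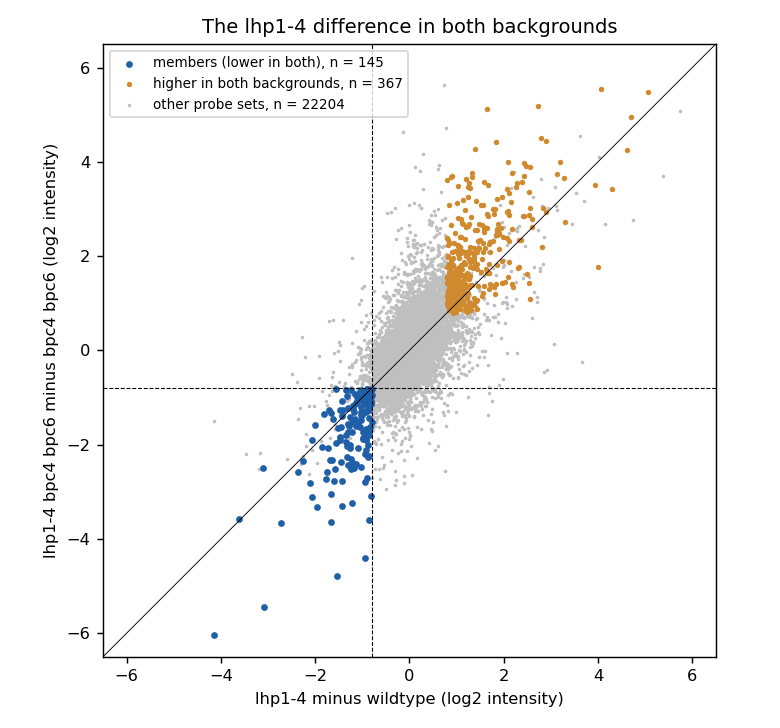
Each point is 1 probe set, with its log2 difference between lhp1-4 and wild type on the x axis and between lhp1-4 bpc4 bpc6 and bpc4 bpc6 on the y axis (means of 2 arrays per genotype). Dashed lines mark -0.8, the solid line marks equal differences, the 145 members are blue and the 367 probe sets that met the mirrored limits are orange. Most members, 111 of 145, lie below the solid line.

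The median log2 difference of the members was -1.11 in lhp1-4 against wild type, which leaves 46.2% of the signal, and -1.59 in the triple mutant against bpc4 bpc6, which leaves 33.1%. Over all probe sets the medians of the same differences were -0.07 and -0.05. In lhp1-4 the differences ran from -4.14 to -0.80, with 91 members at least 2-fold, 11 at least 4-fold and 4 at least 8-fold lower. In the triple mutant against bpc4 bpc6 they ran from -6.05 to -0.81, with 122 at least 2-fold, 48 at least 4-fold and 14 at least 8-fold lower. Since whole shoots were measured, less RNA per cell and fewer cells of a type cannot be told apart. Both comparisons chose the members, so these values describe them and test nothing.

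On single arrays the median intensity of the members was 53.6 and 49.5 in the triple mutant, 76.1 and 80.4 in lhp1-4, 207 and 210 in bpc4 bpc6, and 190 and 192 in wild type. The same medians over all probe sets lay between 54.7 and 58.3 on the 8 arrays. The limits that chose the members set a low pair of genotypes, both with lhp1-4, below a high pair, both without it. The medians of the members on single arrays restate that choice. In them replicate arrays lay closer to each other than to the other pair. Intensities of different probe sets do not compare as amounts of transcript. They describe signal, which in wild type ran from 18.1 to 6832 over the members with quartiles of 73.0 and 593. In each of the genotypes with lhp1-4 the mean of 6 members was under 10, and whether differences are compressed at such low signal was not tested.

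limma, fitted over all probe sets, called 111 of the 145 members lower in lhp1-4 than in wild type at a Benjamini-Hochberg adjusted p under 0.05, where 2.48% of all probe sets were called lower. It called 136 members lower in the triple mutant than in bpc4 bpc6, against 10.9% of all. The 111 members called in lhp1-4 were all among these, and 9 members were called in neither. These contrasts chose the members, so the calls say how many of the chosen differences also exceeded the spread between replicates and nothing more. Fits without 1 array leave a single array of that genotype and have fewer degrees of freedom, which by itself can lower the number of calls. The median log2 difference of the members in lhp1-4 against wild type lay between -1.15 and -1.11 in them. The 111 calls dropped to 41 without lhp1-4 replicate 1 and to 51 without lhp1-4 replicate 2. The 136 calls stayed between 119 and 138 without any 1 array.

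In all 145 members both lhp1-4 arrays lay below both wild type arrays, as in 40% of all probe sets. In 144 both triple mutant arrays lay below both bpc4 bpc6 arrays, as in 36.6% of all. The 4 arrays of plants with lhp1-4 lay below the 4 arrays of plants without it in 143 members, as in 16.2% of all. The exceptions were 251673_AT, whose wild type arrays read 38.2 and 11.4, and 260883_AT, whose triple mutant arrays read 29.3 and 10.1 beside bpc4 bpc6 arrays of 66.8 and 27.6. Both were singled out after their values were seen. The limits that chose the members favour such separations, so the counts of members here describe the choice and test nothing.

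**Figure D2:**
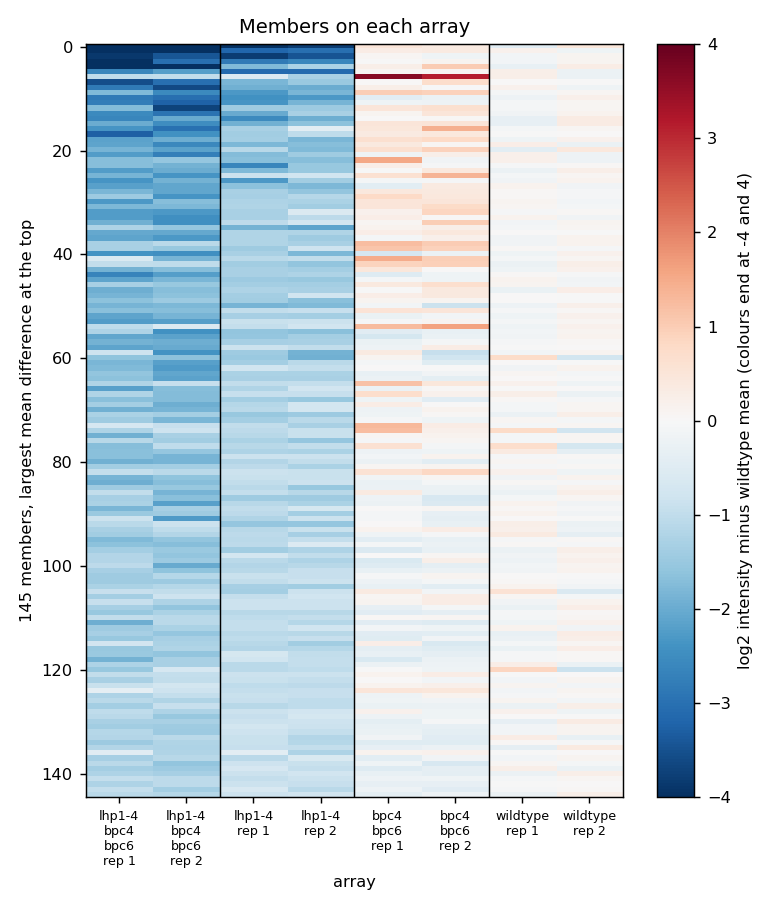
Each row is 1 of the 145 members, ordered by the mean of the 2 lhp1-4 differences, and each column is 1 array. Colour gives log2 intensity minus the wild type mean of that member. Columns of lhp1-4 bpc4 bpc6 and lhp1-4 are blue in nearly every row, deeper in the triple mutant in most. Those of bpc4 bpc6 are mostly near the wild type level, with means below it in 74 members and above it in 71.

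The deepest differences belonged to a few members. Probe set 258419_AT read 58.0 and 28.9 in the triple mutant, 89.3 and 146 in lhp1-4, 2843 and 2573 in bpc4 bpc6, and 1463 and 2767 in wild type. Its log2 difference was -4.14 ± 0.42 for lhp1-4 against wild type and -6.05 ± 0.42 for the triple mutant against bpc4 bpc6 (moderated SE, n = 2 arrays per genotype), so that 5.67% and 1.51% of the signal was left. Its 4 values of 1000 or more had been stored divided by 1000 and were restored, on which both directions rest. The pools of each lhp1-4 genotype differed from each other, yet all 4 lay far below the other 4.

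Probe set 250060_AT read 8.89 and 11.9 in the triple mutant, 9.29 and 11.7 in lhp1-4, 134 and 113 in bpc4 bpc6, and 118 and 139 in wild type. Its log2 difference was -3.62 ± 0.19 in lhp1-4 against wild type and -3.58 ± 0.19 in the triple mutant against bpc4 bpc6. The low genotypes overlapped each other, and so did the high ones, so that no difference between plants with and without BPC4 and BPC6 exceeded the spread of its arrays. Since both low values are near the bottom of the scale, a further difference between them may not be measurable.

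Probe set 255298_AT separated all 4 genotypes. It read 20.5 and 16.5 in the triple mutant, 71.4 and 78.9 in lhp1-4, 795 and 817 in bpc4 bpc6, and 717 and 574 in wild type. Its log2 difference was -3.10 ± 0.15 in lhp1-4 against wild type and -5.45 ± 0.15 in the triple mutant against bpc4 bpc6. No array of one genotype overlapped those of another, and none of its values had been rescaled. Its bpc4 bpc6 level was 0.33 ± 0.15 above wild type, which limma did not call. Both bpc4 bpc6 arrays also lay above both wild type arrays in 18.5% of all probe sets.

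**Figure D3:**
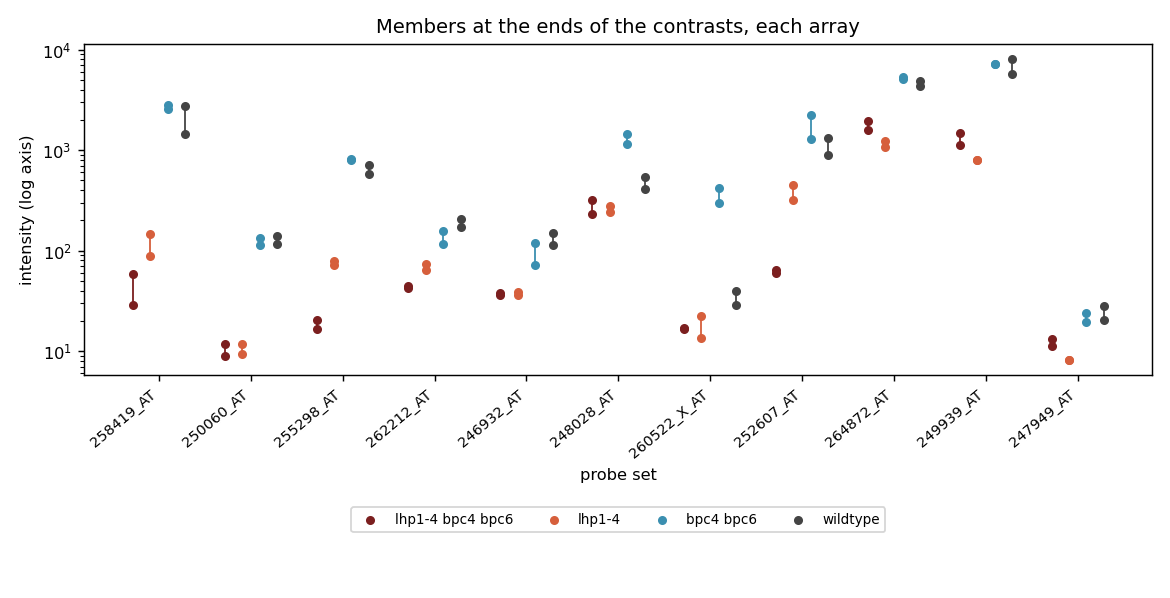
Intensities of 11 members on all 8 arrays, on a log axis. Dots are single arrays, joined by a line within a genotype: lhp1-4 bpc4 bpc6, lhp1-4, bpc4 bpc6 and wild type from left to right in each group. The members are the 2 deepest in each of the 2 lhp1-4 differences that chose the members, whose weakest members are not shown. The others are the 2 at each end of bpc4 bpc6 against wild type, of the triple mutant against lhp1-4 and of the interaction. Probe set 258419_AT spans the widest range, with 28.9 on a triple mutant array and 2843 on a bpc4 bpc6 array.

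In bpc4 bpc6 most members stood near the wild type level, and on the lower side the choice of members required this. The median log2 difference between bpc4 bpc6 and wild type was -0.02, with quartiles of -0.28 and 0.27, and 71 members were higher and 74 lower. The lower end was set by the choice of members, which also leaves little room for calls of a lower level. The upper end was open and reached 3.39. limma called 5 members higher in bpc4 bpc6, against 0.964% of all probe sets, and 0 lower, where 14 had an unadjusted p under 0.05 and 0.841% of all probe sets were called. The 5 calls dropped to 1 without either bpc4 bpc6 array, either lhp1-4 array or wild type replicate 1, and to 3 without either triple mutant array. A model of the bpc4 bpc6 and wild type arrays alone called 0, with 35 members at an unadjusted p under 0.05, and the replicate number as a block left 3. Both bpc4 bpc6 arrays lay above both wild type arrays in 35 members and below them in 42, which is 24.1% and 29.0% of the members beside 18.5% and 25.8% of all probe sets.

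The member farthest above wild type was 260522_X_AT. It read 421 and 296 in bpc4 bpc6 against 39.6 and 28.6 in wild type, a log2 difference of 3.39 ± 0.28, and 16.5 and 16.9 in the triple mutant against 22.3 and 13.6 in lhp1-4. Among the 4 genotypes the high signal was thus seen in bpc4 bpc6 alone, and the _X_AT ending marks a probe set that may also detect other transcripts. Next came 248028_AT, with 1141 and 1445 in bpc4 bpc6 against 415 and 537 in wild type, a log2 difference of 1.44 ± 0.20, and with 231 and 317 in the triple mutant against 243 and 275 in lhp1-4. These members stood at like levels in both lhp1-4 genotypes and differed between the 2 genotypes without lhp1-4. For neither did limma call the difference between lhp1-4 and wild type.

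At the other end, 262212_AT read 116 and 156 in bpc4 bpc6 against 172 and 207 in wild type, a log2 difference of -0.49 ± 0.17. Its triple mutant arrays read 44.6 and 42.9 and its lhp1-4 arrays 64.9 and 73.8. Probe set 246932_AT read 120 and 72.6 in bpc4 bpc6 against 113 and 151 in wild type, a difference of -0.49 ± 0.24, and here the arrays of both genotypes overlapped. Just outside the limit, the nearest probe sets had bpc4 bpc6 differences of -0.50, -0.501 and -0.505, beside -0.492, -0.487 and -0.484 in the nearest members.

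A group of 25 members had a bpc4 bpc6 difference of at least 0.5. Their median log2 difference was -1.13 in lhp1-4 against wild type and -2.47 in the triple mutant against bpc4 bpc6, and in the other 120 members it was -1.10 and -1.36. The bpc4 bpc6 arrays enter both the choice of the 25 and their difference in the triple mutant, which by itself makes the second value larger. The median log2 difference of the triple mutant against wild type was -1.68 in the 25 and -1.54 in the 120. The wild type arrays entered the choice of the 25 as well, in the direction that makes this difference smaller. In the triple mutant against lhp1-4, whose arrays did not enter this split, the median was -0.27 in the 25 and -0.45 in the 120. The limits that chose the members still tie those arrays to bpc4 bpc6 and wild type, in the direction that makes this drop smaller in the 25. None of these differences between the 25 and the 120 was tested.

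Whether loss of BPC4 and BPC6 lowered the members further once LHP1 was mutated was measured by setting the triple mutant against lhp1-4. The median log2 difference was -0.44, which leaves 73.6% of the lhp1-4 signal, and 127 members were lower and 18 higher. Over all probe sets the median was -0.01, and 52.7% were lower. limma called 24 members lower, 16.6% of them, against 1.13% of all probe sets, and 0 higher, where 4 had an unadjusted p under 0.05 and 2.18% of all probe sets were called. This contrast was not used to choose the members but is made of the same genotype means, so that the counts are a description. The number of calls was 2 without lhp1-4 replicate 2, 3 without its replicate 1, 10 without triple mutant replicate 1 and 8 without its replicate 2. A model of the triple mutant and lhp1-4 arrays alone called 11 members.

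Both triple mutant arrays lay below both lhp1-4 arrays in 95 members, 65.5% of them, beside 25.3% of all probe sets. They lay above in 9, or 6.21%, beside 21.3% of all. Ordered by mean, 68 members ran from the triple mutant at the bottom through lhp1-4 and bpc4 bpc6 to wild type, and 59 had the same order with bpc4 bpc6 above wild type. In the other 18 members lhp1-4 was lowest.

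Probe set 252607_AT had the largest such difference. It read 59.4 and 64.2 in the triple mutant against 320 and 449.8 in lhp1-4, a log2 difference of -2.62 ± 0.31, and 1294 and 2233 in bpc4 bpc6 against 895 and 1335 in wild type. The triple mutant arrays stood well below those of lhp1-4, and the 4 arrays without lhp1-4 overlapped. For 255298_AT, with the values given above, the difference between the triple mutant and lhp1-4 was -2.03 ± 0.15. limma called both, and the call of 252607_AT ended without any of the 4 arrays compared.

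The reverse order was seen at high signal and at low signal. Probe set 249939_AT, with the brightest wild type signal among the members, read 1119 and 1469 in the triple mutant against 795 and 794.8 in lhp1-4, and 7193 and 7180 in bpc4 bpc6 against 8068 and 5786 in wild type. The triple mutant was 0.69 ± 0.18 above lhp1-4 on the log2 scale. Probe set 264872_AT read 1954 and 1570 in the triple mutant against 1229 and 1073 in lhp1-4, a difference of 0.61 ± 0.14, and 5116 and 5406 in bpc4 bpc6 against 4324 and 4883 in wild type. Both triple mutant arrays lay above both lhp1-4 arrays in each, and limma called neither.

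The interaction is the difference between the triple mutant and bpc4 bpc6 minus the difference between lhp1-4 and wild type, on the log2 scale, so that a negative value means a larger drop where BPC4 and BPC6 were also lost. Its median over the members was -0.35, with quartiles of -0.94 and -0.03, and 111 members were below 0, 76.6% beside 46.5% of all probe sets. limma called 12 members below 0, 8.28% of them, against 0.792% of all probe sets, and 0 above 0, where 2 had an unadjusted p under 0.05 and 1.54% of all were called. All 4 genotype means enter both the choice of members and the interaction, so that these counts too are a description. In particular the limit on bpc4 bpc6 against wild type is one-sided, which favours negative values. With that limit set on both sides, at -0.5 and 0.5, 120 members remained, their median interaction was -0.28, and 86 of them, 71.7%, had the larger drop in the triple mutant. With no limit there were 194 probe sets, with a median of -0.20 and 126 below 0, 64.9%.

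Calls of the interaction rested on few arrays. Their number was 1 and 4 without lhp1-4 replicates 2 and 1, 5 and 8 without triple mutant replicates 1 and 2, 5 and 6 without wild type replicates 1 and 2, 6 without bpc4 bpc6 replicate 2 and 12 without bpc4 bpc6 replicate 1. Of the 12 members called, 9 were also called lower in the triple mutant than in lhp1-4, beside 24 of all 145 members. In lhp1-4 against wild type 10 of the 12 were called lower, beside 111 of the 145. A bpc4 bpc6 difference of at least 0.5 was seen in 6 of the 12, beside 25 of the 145, or 17.2%. The interaction also equals the triple mutant against lhp1-4 minus bpc4 bpc6 against wild type. Overlaps with these differences thus follow in part from how it is made.

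The most negative interactions were those of 260522_X_AT, at -3.45 ± 0.40, and 252607_AT, at -3.26 ± 0.43 (moderated SE, n = 2 arrays per genotype). In 260522_X_AT the bpc4 bpc6 arrays stood far above those of the other 3 genotypes. In 252607_AT the lhp1-4 arrays lay below both genotypes without lhp1-4, and the triple mutant arrays lay lower still. The most positive were those of 247949_AT, at 0.73 ± 0.25, and 249939_AT, at 0.62 ± 0.26, and limma called neither. Probe set 247949_AT read 11.3 and 13.3 in the triple mutant against 8.20 and 8.23 in lhp1-4, and 24.2 and 19.6 in bpc4 bpc6 against 28.3 and 20.5 in wild type, so that it was dim throughout.

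**Figure D4:**
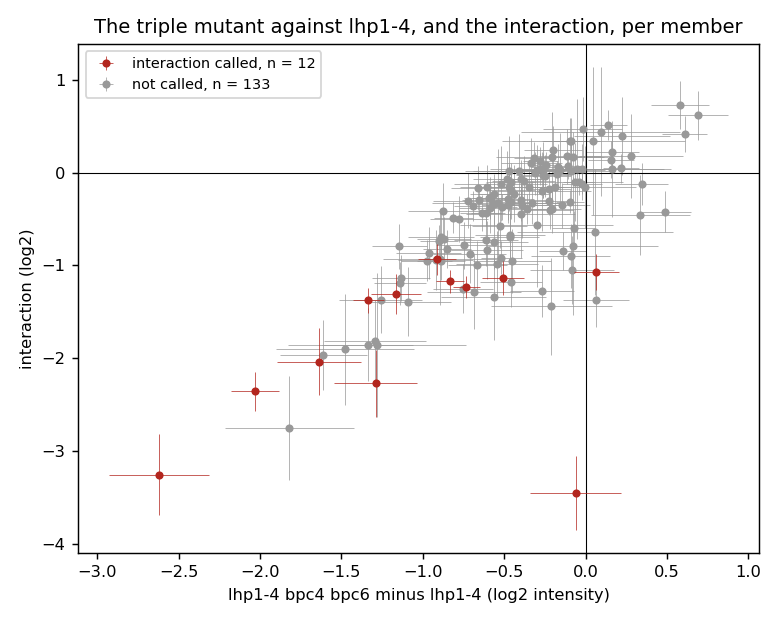
Each point is 1 of the 145 members, with the log2 difference between lhp1-4 bpc4 bpc6 and lhp1-4 on the x axis, the interaction on the y axis and bars of 1 moderated standard error. The 12 members whose interaction limma called are red and all lie below 0. Probe set 260522_X_AT, at an interaction of -3.45, is the isolated point at the lower right with an x value of -0.06.

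The differences in both backgrounds, which share no array, went together across the 145 members (Pearson's r = 0.611, Spearman's rho = 0.463), beside 0.647 and 0.517 over all 22716 probe sets. Members are not independent of each other, and the choice cut off both values at -0.8. The deeper members in one background tended to be the deeper ones in the other.

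For comparison, the mirrored limits were applied: at least 0.8 higher in lhp1-4 than in wild type and in the triple mutant than in bpc4 bpc6, with bpc4 bpc6 below 0.5 over wild type. They chose 367 probe sets, so that members were the smaller set. The median log2 difference of the 367 was 1.18 in lhp1-4 against wild type and 1.7 in the triple mutant against bpc4 bpc6. In 298 of them, 81.2%, the second difference was the larger, beside 76.6% of the members. Their median interaction was 0.45, against -0.35 in the members. A larger lhp1-4 difference in the bpc4 bpc6 background was therefore not particular to the members, and no test of the 2 sets against each other was run. Both sets were cut by a one-sided limit of the same kind.

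The difference between replicates of a genotype does not enter genotype means, and the limits did not use it directly. Limits on means of 2 arrays can still favour probe sets with a wide spread, so it is not independent of the choice. Between the 2 arrays of a genotype the median absolute log2 difference of the members was 0.25 in the triple mutant, 0.15 in lhp1-4, 0.19 in bpc4 bpc6 and 0.24 in wild type. In the 73 members whose mean over the genotypes lay between the quartiles of all members, the same medians were 0.25, 0.17, 0.21 and 0.24. Over 8536 other probe sets of known level in that range of brightness they were 0.17, 0.11, 0.14 and 0.16. In all 4 genotypes the median was thus larger in the members, and this difference was not tested. A replicate difference over 0.8, as large as the limit itself, was found in 14 members in the triple mutant, 4 in lhp1-4, 9 in bpc4 bpc6 and 7 in wild type. The members did not all lean to the same replicate: replicate 1 was higher in 55.9% of them in the triple mutant, 44.8% in lhp1-4, 41.4% in bpc4 bpc6 and 40.7% in wild type, where over all probe sets it was higher in 42.5%, 48.9%, 45.6% and 58.6%.

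Without any 1 array the limits chose between 139 and 165 probe sets, and 79 of the 145 members (54.5%) were chosen in all 8 such lists. The median log2 differences of these 79 were -1.30 in lhp1-4 against wild type, -1.95 in the triple mutant against bpc4 bpc6 and 0.11 for bpc4 bpc6 against wild type. The other 66 lay closer to the limits, with -0.94, -1.19 and -0.21. Wild type arrays moved the list most: 114 members were kept without wild type replicate 1 and 119 without replicate 2, against 130 to 137 without an array of another genotype.

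At least 1 rescaled value was present in 26 members, 17.9%, beside 7.76% of all probe sets, in 24 of them on some arrays only. Their median log2 differences were -1.12 in lhp1-4 against wild type and -1.64 in the triple mutant against bpc4 bpc6, beside -1.11 and -1.57 in the 119 members without a rescaled value. The members were of known level, since none came from the 5007 probe sets whose scale could be read in either of 2 ways. Those 5007 count as not rescaled in the 7.76%, and 1763 of the 17709 probe sets of known level held a rescaled value. Identifiers of 7 members ended in _S_AT, 4.83% beside 4.11% of all probe sets, and those of 2 in _X_AT. Such endings mark probe sets that may detect several related transcripts, so 9 members may not stand for 1 gene.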

How the data were processed

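For each of 8 arrays the deposited table gives 1 intensity for a probe set. These come from RMA (background correction, quantile normalisation and summary over probes), per the submitters' processing notes. Its version is not given in the sources used here, and scanner files were not used. The deposited intensity values are linear. None reached 1000, from which it was inferred that values of 1000 or more were stored divided by 1000. A value under 3, or one of 10 to 100 with 3 decimals, was multiplied by 1000. One of 10 to 100 with fewer decimals was multiplied if that put it within 5-fold of a multiplied value of its probe set. Values of 3 to 10 took the reading within 5-fold of a settled value of their probe set where the other reading was at least 20-fold off. Of 22747 probe sets, 30 could not be settled and 1 control was left out.

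Arrays were assigned to genotypes by their titles. log2 intensities were fitted with limma 3.58.1 in R 4.3.3, as 1 model of 4 genotype means without a replicate block and with default moderation, and p-values were adjusted by Benjamini-Hochberg over all 22716 probe sets. The fit and the scale rule were tested on simulated data. Members and the limits that choose them were taken with earlier results of these data known, as was the plan to name the 2 members at each end of a contrast. In the lhp1-4 differences that chose the members, only those at the deep end were named. The plan for gene lists, marker genes and promoter motifs needed gene names and was not carried out. Alternatives were another scale rule, no rescaled values, median centring, quantile normalisation, a filter on dim probe sets, each array left out, a replicate block and models of only the genotypes compared.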

Additional observations from a re-analysis of the deposited data

Results flagged for a closer look

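A difference of the lhp1-4 effect between plants with and without BPC4 and BPC6 was called by limma's interaction test in 12 of the 145 members, all with the larger drop in the bpc4 bpc6 background, and this set them apart for a closer look. Among the members named above these were 260522_X_AT, with an interaction of -3.45 ± 0.40 on the log2 scale (moderated SE, n = 2 arrays per genotype), 252607_AT, with -3.26 ± 0.43, and 255298_AT, with -2.36 ± 0.21. All 4 genotype means also entered the choice of members. The call of 260522_X_AT ended without triple mutant replicate 1, that of 255298_AT without lhp1-4 replicate 2, and that of 252607_AT without either triple mutant array, either lhp1-4 array or wild type replicate 1. Of the 12 calls 0 were kept in all 8 fits that leave out 1 array, which also have fewer degrees of freedom. The test for a single array far from its group was not applied, because each genotype had 2 arrays.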

How the results depend on the processing

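The median log2 differences of the members kept their direction in every alternative for lhp1-4 against wild type, the triple mutant against bpc4 bpc6, lhp1-4 and wild type, and the interaction. That of bpc4 bpc6 against wild type was -0.02, and it was 0.01 without wild type replicate 2, -0.13 with the limit on bpc4 bpc6 on both sides and -0.19 with no limit. With the limit on bpc4 bpc6 on both sides, chosen after seeing the data, the median in the triple mutant against bpc4 bpc6 was -1.36. Without 1 array the number called lower in lhp1-4 ran from 41 to 112, that called in bpc4 bpc6 against wild type from 1 to 4, that in the triple mutant against lhp1-4 from 2 to 22 and that of the interaction from 1 to 12. With only the genotypes compared in the model limma called 0 members in bpc4 bpc6 against wild type, with 35 at an unadjusted p under 0.05, and 11 in the triple mutant against lhp1-4. Leaving out the dimmest probe sets gave 20 interaction calls. Arrays centred on their medians gave 182 members and no limit on bpc4 bpc6 gave 194.

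In the labels, replicates of different genotypes share only a number, which does not say whether they were handled together. Differences between replicates 1 and 2 correlated across probe sets from -0.18 to 0.23 between genotypes, and with the replicate number as a block limma called 121 members lower in lhp1-4, 140 in the triple mutant against bpc4 bpc6, 3 changed in bpc4 bpc6 against wild type, 24 in the triple mutant against lhp1-4 and 15 for the interaction. The causes of these shifts were not tested. Signal near the bottom of the scale may limit the depth of a drop that can be seen in dim members.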

Other observations

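Members were not spread evenly over the identifiers of the array. Among runs of 150 probe sets in order of identifier number, the densest held 11 members, where the median run held 1. The run and its length were chosen after seeing the data and no test was made. These 11 had numbers from 244937 to 245049. Their drops were of modest size, with median log2 differences of -0.97 in lhp1-4 against wild type and -1.12 in the triple mutant against bpc4 bpc6, beside -1.16 and -1.63 in the other 134 members. limma called 5 of the 11 lower in lhp1-4 and 9 lower in the triple mutant than in bpc4 bpc6, beside 106 and 127 of the other 134 members and 2.48% and 10.9% of all probe sets. Of the 113 probe sets between these numbers, members included, 101 had a lower mean in lhp1-4 than in wild type, with a median log2 difference of -0.32, where 61.4% of all probe sets were lower and the median was -0.07. In the triple mutant against bpc4 bpc6 97 of the 113 had a lower mean, with a median of -0.35, where 61.9% of all were lower and the median was -0.05. limma called 14 and 34 of the 113 lower in these comparisons. In bpc4 bpc6 against wild type the median of the 113 was -0.17, beside -0.03 over all probe sets. What neighbouring identifier numbers share is not given in the sources used here, and whether these probe sets detect transcripts of nuclear or of organellar genes was not checked.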
